A study of Mus musculus with 24 samples.

Results

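Protein-protected sites (PPSs) are stretches of RNA that nucleases cut less when the bound proteins are left in place than after they are removed. Here the PPSs that lay on genes of small noncoding RNAs were examined, namely every site that shared at least 1 nt, on the same strand, with a gene annotated as snoRNA, scaRNA, snRNA, miRNA or misc_RNA. By this rule 1384 of 460777 PPSs were members, and they fell on 559 of the 5705 annotated genes of these 5 types. The sites came from protein interaction profile sequencing of MEL cells, a mouse erythroleukemia line that takes up the erythroid programme when grown with DMSO. Cells had been grown without DMSO (day 0) or with 2% DMSO for 2 or 4 days, with 2 replicate cultures per day, and all cultures were crosslinked with formaldehyde. Each replicate gave 4 libraries, in which RNA was digested with a nuclease for single-stranded RNA (ssRNase) or for double-stranded RNA (dsRNase), before or after its proteins were removed. The PPSs of a day had been merged into 1 list, in which each site names the nuclease and replicate of every call it holds, so that 12 call sets (3 days by 2 nucleases by 2 replicates) could be told apart. As a check of the labels, Alas2, which encodes the first enzyme of heme synthesis in red cells, held 8, 32 and 62 PPSs at day 0, 2 and 4, and the globin genes Hbb-bs and Hbb-bt held 5, 6 and 9 and 3, 7 and 11. Other erythroid markers were highest at day 2, with 13, 23 and 17 PPSs on Gata1, 16, 25 and 21 on Epor, 8, 21 and 16 on Klf1 and 5, 7 and 5 on Hba-a1, while Hba-a2 held 0, 5 and 5 and Slc4a1 0, 0 and 12.

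Most of these RNAs work in ribonucleoprotein particles. Box C/D snoRNAs guide 2′-O-methylation and box H/ACA snoRNAs guide pseudouridylation of ribosomal RNA, and the boxes are the motifs that their core proteins recognise. The related scaRNAs act on spliceosomal snRNAs in Cajal bodies, snRNAs are the RNA cores of the spliceosome, and miRNAs are cut from hairpins of longer primary transcripts. In mammals most snoRNAs are released from introns of a host gene, so a PPS at a snoRNA gene can lie on the mature particle or on the host transcript, and these lists do not separate the mature RNA from the host transcript.

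The sequences below show what a PPS covered. Snord100, a box C/D snoRNA of the ribosomal protein gene Rps12, lies at chr10:23785750-23785823 on the minus strand of mm10, and its box C (TGATGA) and box D (CTGA) are in capitals in the first line. In the other lines, which give its PPSs of the 3 days, capitals mark the bases of the gene and lower case the protected bases outside it.
Snord100 gene: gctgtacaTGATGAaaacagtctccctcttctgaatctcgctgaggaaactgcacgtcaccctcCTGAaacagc
Snord100, PPS at day 0: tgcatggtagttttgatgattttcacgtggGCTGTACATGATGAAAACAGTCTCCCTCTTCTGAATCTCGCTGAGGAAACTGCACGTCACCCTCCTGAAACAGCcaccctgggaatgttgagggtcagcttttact
Snord100, PPS at day 2: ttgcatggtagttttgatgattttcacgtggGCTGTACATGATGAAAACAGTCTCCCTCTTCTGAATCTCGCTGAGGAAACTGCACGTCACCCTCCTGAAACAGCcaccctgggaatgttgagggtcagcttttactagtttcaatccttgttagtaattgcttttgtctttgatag
Snord100, PPS at day 4: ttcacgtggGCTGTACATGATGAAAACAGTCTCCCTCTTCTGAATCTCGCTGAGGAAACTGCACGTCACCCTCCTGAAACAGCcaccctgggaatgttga
These PPSs were 136, 177 and 100 nt long at day 0, 2 and 4, around a gene of 74 nt. They ran 30, 31 and 9 nt past its 5′ end and 32, 72 and 17 nt past its 3′ end. Snora30, a box H/ACA snoRNA at chr7:127527874-127528003 on the plus strand, is shown because its PPS ended close to the gene. The ACA box is in capitals in its gene, and the gene is in capitals in its day 0 PPS.
Snora30 gene: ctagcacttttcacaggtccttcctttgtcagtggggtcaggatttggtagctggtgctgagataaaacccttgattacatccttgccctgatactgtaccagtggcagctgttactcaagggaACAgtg
Snora30, PPS at day 0: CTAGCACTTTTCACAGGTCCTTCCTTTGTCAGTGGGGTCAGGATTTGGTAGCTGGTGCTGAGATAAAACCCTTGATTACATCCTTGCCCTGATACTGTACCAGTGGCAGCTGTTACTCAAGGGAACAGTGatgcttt
The PPS began at the first base of the gene and ended 7 nt past its last base. Rnu11, the U11 snRNA of the minor spliceosome at chr4:132270080-132270213 on the minus strand, was covered from end to end at day 0, when the PPS held 1 further base, in lower case.
Rnu11, PPS at day 0: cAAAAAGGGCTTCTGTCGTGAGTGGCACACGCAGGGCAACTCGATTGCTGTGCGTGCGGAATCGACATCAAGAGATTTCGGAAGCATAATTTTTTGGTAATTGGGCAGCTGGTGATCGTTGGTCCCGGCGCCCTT

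The protected small RNAs were mostly snoRNAs. At least 1 PPS lay on 335 of 1507 snoRNA genes (22.2%), on 32 of 51 scaRNA genes (62.7%), on 155 of 2202 miRNA genes (7.04%), on 19 of 1383 snRNA genes (1.37%) and on 18 of 562 misc_RNA genes (3.203%). Members numbered 419 at day 0, 524 at day 2 and 441 at day 4, or 0.302%, 0.309% and 0.289% of the PPSs of those days (Wilson 95% intervals 0.275 to 0.332, 0.284 to 0.337 and 0.263 to 0.317, which cover counting error only). The snoRNA genes held 293, 342 and 303 of them. Of the 335 snoRNA genes, 271 held a PPS at all 3 days. Among box C/D snoRNAs, as named by RefSeq, these were 115 of 119 genes, and among box H/ACA snoRNAs 130 of 172. The miRNA genes differed more between days, with 53 of 155 at all 3 days. Over all 5 types, 364 of 559 genes with a PPS held one at all 3 days (65.1%). The share over genes outside these types was not computed. Of the genes with a PPS, 332 carry predicted-gene symbols (Gm), and 123 PPSs lay on more than 1 small RNA gene.

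Named snoRNAs were covered more often than the whole annotation. All 61 Snord genes with a PPS, of 99 annotated, held one at each of the 3 days. So did all 34 Snora genes with a PPS, of 42 annotated, and the 9 Scarna genes, of 9 annotated. The Snord genes without a PPS included the 17 annotated copies of Snord116, which lie in tandem with many Snord115 copies in the imprinted host Snhg14. No PPS lay on any of the 200 box C/D genes in Snhg14, against 119 of the 170 box C/D genes elsewhere (70.0%). There was also no PPS on Snord118 (U8), Snora73a and Snora73b (U17), which act in cleavage of the ribosomal RNA precursor, on Snord13, or on the 6 annotated Snord14 and Snord15 genes.

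Spliceosomal RNAs split by class. Of the annotated snRNA genes that RefSeq names as parts of the minor spliceosome, which removes a rare class of introns, a PPS lay on 5 of 5 U11 genes, 4 of 4 U12 genes and 4 of 16 U6atac genes. Of 877 genes named as U1, U2, U4, U5 or U6 RNAs, which form the major spliceosome, 3 held a PPS. All 3 were U2 copies and shared a single base with it (0.524% of the gene). The 22 genes with Rnu symbols include some outside the spliceosome, such as Rnu3a and Rnu7. Among them only Rnu11 and Rnu12 held a PPS, at days 0 and 2 and at day 2. The authors kept reads with up to 10 genomic hits, so PPSs on near-identical copies cannot be assigned to 1 copy, and the part of the copy number in these counts was not tested.

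Positions inside snoRNA and scaRNA genes lay in PPSs more often than those around them. Over all annotated genes of a type, the percentage of positions inside a PPS was compared with that in the 200 nt on each side, in each of the 6 replicates. In snoRNA genes 15.2% ± 0.68 of positions were protected (SD, n = 6) against 4.48% ± 0.62 in the flanks, and in scaRNA genes 38.9% ± 3.47 against 4.49% ± 0.30. The miRNA genes stood closer to their surroundings, with 2.00% ± 0.20 against 1.58% ± 0.14. In all 3 types the gene was higher than the flanks in 6 of 6 replicates (exact two-sided sign-flip permutation test, p = 0.0312, the smallest that 6 replicates allow). After Benjamini-Hochberg adjustment over the 5 types the value was 0.0521, so none passed 0.05. It was 0.0391 for these 3 types when PPSs on exons of other genes were left out, where snoRNA genes exceeded their flanks by 7.38 percentage points. The unadjusted exact permutation p of the 3 types stayed 0.0312 there. The adjusted value was lower only because misc_RNA genes also reached that p. Without genes of predicted symbols the difference was 35.5 percentage points for snoRNA genes in place of 10.7, and 69.4 for scaRNA genes in place of 34.5. The snRNA genes had 0.36% ± 0.21 against 0.17% ± 0.02 (higher in 4 of 6 replicates, exact permutation p = 0.125), and the misc_RNA genes 0.79% ± 0.06 against 0.94% ± 0.18 (higher in 1 of 6, exact permutation p = 0.156). The sign of the misc_RNA difference turned under 5 alternatives, and without PPSs on exons of other genes the genes were higher by 0.21 percentage points in 6 of 6 replicates (adjusted exact permutation p = 0.0391). Within the snoRNAs, box C/D genes had 28.2% of positions protected against 9.76% of their flanks, and box H/ACA genes 14.9% against 3.10%.

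Most protected snoRNAs lay within host genes. Of the 335 snoRNA genes, 260 lay within another gene on the same strand, in 159 hosts of which 132 code for proteins. Ribosomal protein genes with a number in their symbol made up 23 hosts with 43 protected snoRNAs, among them Rpl13a and Rps12. Rpsa, which also encodes a ribosomal protein and is not in this count, held 2. Gas5 with 8 Snhg genes, noncoding hosts known mainly for their snoRNAs, held 32. Every annotated small RNA gene was protected in Gas5 (10 of 10), in Taf1d, which encodes a subunit of an RNA polymerase I factor (10 of 10), and in Snhg1 (8 of 8). The shares of snoRNA genes with a PPS are given by location. A PPS lay on 125 of 248 snoRNA genes in introns of protein-coding hosts (50.4%), on 121 of 159 that touched an exon of another gene (76.1%), on 14 of 259 in introns of other hosts (5.41%) and on 75 of 841 without a host (8.92%). In introns of other hosts a PPS lay on 8 of 209 box C/D genes and on 6 of 28 box H/ACA genes. The low box C/D share there goes with the Snhg14 array, where none of 200 box C/D genes held a PPS. Of the 1384 PPSs, 586 (42.3%) touched an exon of another gene and may belong to the host's RNA.

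PPSs on small RNA genes held a dsRNase call more often than other PPSs. A dsRNase call of the replicate was present in 59.3% and 66.1% of members at day 0, 62.7% and 66.2% at day 2, and 83.9% and 88.1% at day 4, against 19.6% to 62.8% of the others. The mean was 71.0% ± 11.9 of members and 43.4% ± 15.0 of others (SD, n = 6, higher in 6 of 6 replicates), with p = 0.0312 by the exact sign-flip permutation test and 0.0395 after adjustment over 24 tests. Of these tests 19 passed, all at the smallest p that 6 replicates allow, and they include tests of length and replicate support. The adjusted values thus rest on those tests too, and the replicates of a day share merged sites. The members were also longer, but a long site touches a gene by 1 nt more easily than a short one, so length is tied to the rule and is given as a description. Their median length was 133 nt in both day 0 replicates, 101 and 102 nt at day 2, and 107 and 112.5 nt at day 4, against 50 to 63 nt for all other PPSs. PPSs of 20 to 40 nt, the size of ribosome footprints, made up 8.56% ± 3.29 of members and 18.5% ± 6.10 of the others. That difference of -9.96 percentage points was -3.95, and lower in 5 of 6 replicates, without PPSs on exons of other genes. It was -1.62 among PPSs with a score of 10 or more. A call of the other replicate of that day was present in 81.9% of members against 41.5% of others. Among PPSs with a score of 10 or more it was present in 95.9% against 85.3%. Over all PPSs, 69.7% held a single call and so could not hold calls of both replicates. The replicates of a day count the same shared sites for this measure, so its 6 values are not independent and no p is given. In the combined lists, 313 of 419 members at day 0 (74.7%) held calls of both replicates where 26.2% of all PPSs did, 331 of 524 at day 2 (63.2%) where 23.2% did, and 310 of 441 at day 4 (70.3%) where 29.5% did. Long sites can hold more calls, so members and others of 80 to 160 nt were compared, an alternative chosen after seeing the data. The difference in dsRNase calls was then 34.7 percentage points (78.8% against 44.1%, 6 of 6 replicates, adjusted exact permutation p = 0.0417), and that in replicate support was 19.3 (95.3% against 76.0%). When at least 50% of a PPS had to lie inside the gene, the difference in dsRNase calls was 28.3, in 6 of 6 replicates. Its exact permutation p was again 0.0312, and 0.0536 after adjustment. With 5 replicates the test cannot go below 0.0625.

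**Figure D1:**
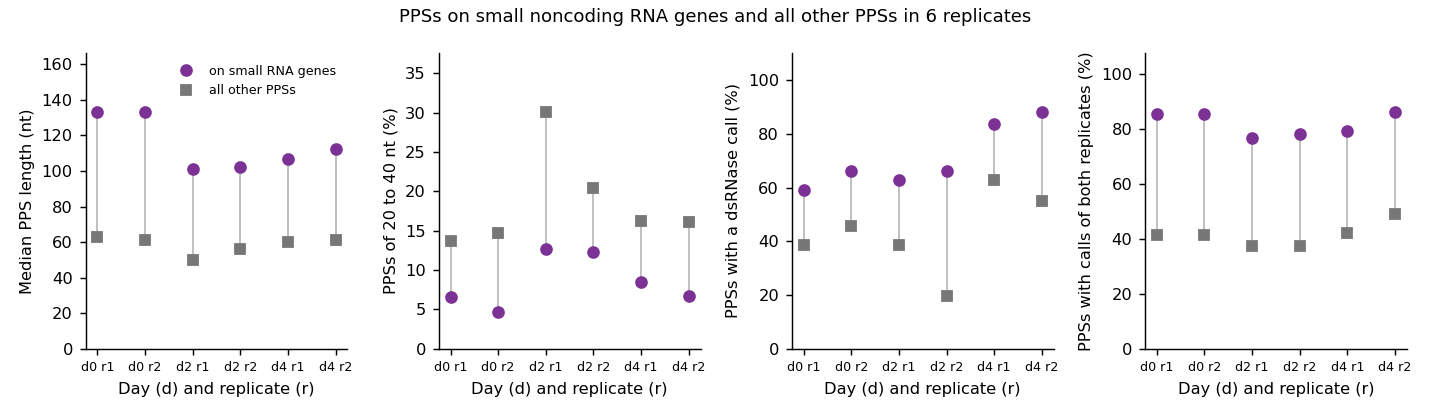
Median PPS length (nt) and the percentages of PPSs of 20 to 40 nt, with a dsRNase call and with calls of both replicates, for PPSs on small RNA genes (circles) and all other PPSs (squares) in the 6 replicates. A grey line joins the values of 1 replicate. In every replicate the circles lie above the squares for length (101 to 133 nt against 50 to 63 nt), dsRNase calls and replicate support, and below them for sites of 20 to 40 nt.

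The gene types are described one by one. For dsRNase calls, snoRNA genes (79.3% ± 12.2), scaRNA genes (73.1% ± 11.5) and miRNA genes (54.1% ± 11.5) were above the other PPSs in 6 of 6 replicates (adjusted exact permutation p = 0.0395). The test separated neither snRNA genes (41.3% ± 17.3, adjusted exact permutation p = 0.679) nor misc_RNA genes (46.1% ± 15.999, 0.783) from the others. PPSs on snoRNA genes were called in the other replicate in 89.3%, on scaRNA genes in 80.1%, on misc_RNA genes in 70.6%, on snRNA genes in 66.4% and on miRNA genes in 62.6%. The mean of the median lengths over the replicates was 124.6 nt for snoRNA, 111.8 nt for scaRNA, 108.9 nt for misc_RNA, 91.5 nt for miRNA and 62.0 nt for snRNA genes. The types were not tested against each other, and snRNA and misc_RNA genes held 8 to 23 PPSs per day.

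The counts by nuclease of day 4 stood apart from those of day 0 for snoRNA genes. The numbers of snoRNA PPSs with an ssRNase call were 246 and 252 in the day 0 replicates, 284 and 226 at day 2, and 163 and 117 at day 4. Those with a dsRNase call were 175 and 196 at day 0, 220 and 232 at day 2, and 261 and 256 at day 4. For both nucleases the day 4 replicates lay apart from the day 0 replicates, in opposite directions. Mean counts at day 4 were 0.562 times those at day 0 for ssRNase and 1.39 times for dsRNase, where over all PPSs the ratios were 0.893 and 1.58. With 2 replicates a day an exact permutation test cannot go below p = 0.333, so the difference was not tested. An ssRNase call was present in 91.4%, 91.6% and 65.1% of all members at day 0, 2 and 4, where 69.4%, 79.6% and 54.3% of all PPSs held one. Within single replicates the direction was not uniform, since an ssRNase call of that replicate was less frequent in members in day 2 replicate 2 (79.7% against 86.1%) and day 4 replicate 2 (47.8% against 57.4%). A dsRNase call was present in 69.5%, 66.2% and 87.1%, where 46.3%, 33.0% and 65.5% of all PPSs held one. PPSs on snoRNA genes that held dsRNase calls alone numbered 17 of 293 at day 0 (5.80%), 23 of 342 at day 2 (6.73%) and 111 of 303 at day 4 (36.6%). Of all PPSs 30.6%, 20.4% and 45.7% held dsRNase calls alone, so the snoRNA share lay below the whole list on each day.

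**Figure D2:**
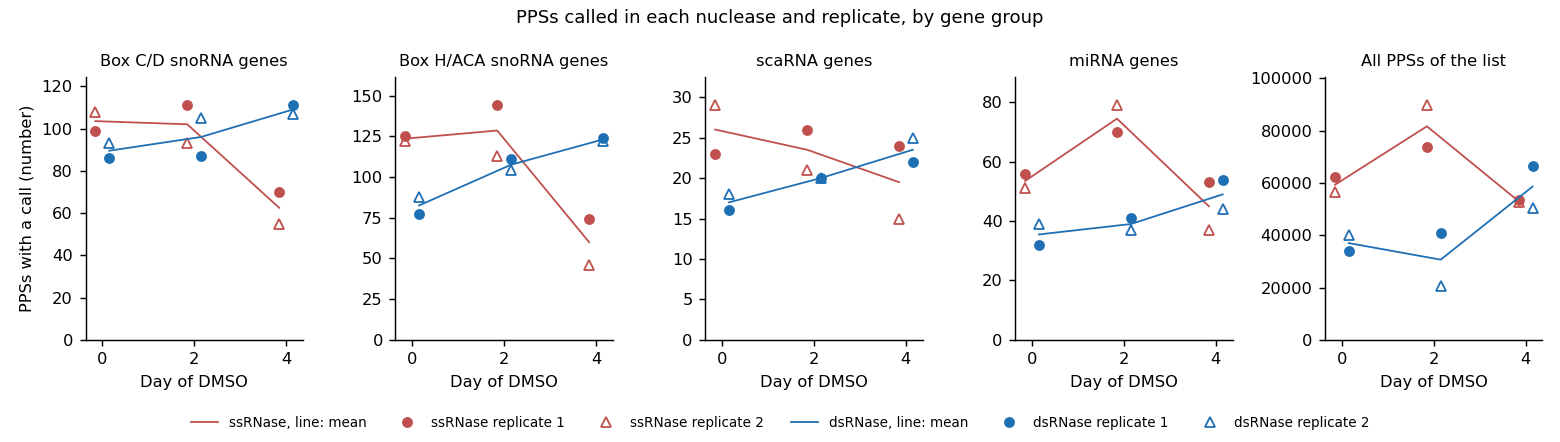
Number of PPSs with a call in each nuclease and replicate at day 0, 2 and 4 for 4 gene groups and for the whole list. Points are replicates and lines join the means. For both snoRNA classes the ssRNase points at day 4 lie below those at day 0 and the dsRNase points above them, and in the whole list the day 2 dsRNase replicate 2 is the lowest, with 20569 PPSs.

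Sites with both dsRNase calls at day 0 were mostly met by such sites again at day 4. Of 144 snoRNA PPSs with dsRNase calls of both replicates at day 0, 140 overlapped PPSs with dsRNase calls of both replicates at day 4 (97.2%), where 29.2% of such PPSs in the whole list did. Of 222 snoRNA PPSs with ssRNase calls of both replicates at day 0, 91 overlapped PPSs with both ssRNase calls at day 4 (41.0%, against 32.1% in the whole list). Another 62 overlapped none with an ssRNase call (27.9%, against 39.7%). Of these 62, 56 overlapped a PPS with a dsRNase call (90.3%, against 25.6% in the whole list). Members are longer than other sites and longer sites meet others more easily, and the part of length in these shares was not tested. Across the 12 call sets, 43 snoRNA genes were called in all, 22 of them box C/D and 16 box H/ACA. Members made up 3.27 to 6.65 per 1000 PPSs in 11 call sets and 13.6 per 1000 in the day 2 dsRNase replicate 2, the smallest set, which still held 280 members against 271 in replicate 1.

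The reach of protection beyond box C/D genes also differed between days. Box C/D PPSs ran a median of 20 nt past the 5′ end and 31 nt past the 3′ end of the gene at day 0, 4 and 16 nt at day 2, and 1 and 10 nt at day 4. Taken by replicate, the medians past the 5′ end were 20 and 20 nt at day 0, 6 and 7.5 nt at day 2, and 1 and 1 nt at day 4. For PPSs with an ssRNase call, the replicate medians past the 3′ end were 40 and 32 nt at day 0. They were 17 and 22 nt at day 2 and 20 and 31 nt at day 4. With a dsRNase call they were 38 and 31 nt, 21 and 18 nt, and 12 and 12 nt. The difference at the 3′ end was thus not alike in all call sets. The replicates of a day share merged sites, since 108 of 116, 108 of 121 and 106 of 120 box C/D PPSs held calls of both. The replicate values in this paragraph are therefore not independent. The median PPS length was 137, 111 and 98 nt on genes with a median of 77 nt, while that of all PPSs was 58, 50 and 56 nt. At a position 20 nt before the gene, 53.8% and 54.6% of the 119 box C/D genes were in a PPS of the day 0 replicates, 35.3% and 35.3% at day 2, and 24.4% and 23.5% at day 4. At 50 nt past the 3′ end the values were 43.7% and 42.9%, 25.2% and 22.7%, and 22.7% and 21.0%. In 115 box C/D genes with a PPS at both day 0 and day 4, the longest PPS was shorter at day 4 in 83 and longer in 31, with a median change of -26 nt.

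The ends of box H/ACA PPSs had medians close to those of the gene but spread widely inside it. They lay a median of 0.5 nt before the 5′ end and 3 nt past the 3′ end at day 0, 0 and 1 nt at day 2, and -1 and 1 nt at day 4, where a negative value lies inside the gene. The quartiles at the 5′ end were -14.75 and 13.75 nt at day 0, -50.5 and 7 nt at day 2, and -39.5 and 11.5 nt at day 4, and 24.7%, 34.2% and 30.3% of the PPSs lay wholly inside the gene. At 20 nt before the gene 25% and 22.7% of the 172 genes were in a PPS at day 0 and 20.3% and 19.8% at day 4. In 133 box H/ACA genes with a PPS at both days the longest PPS was shorter at day 4 in 72 and longer in 56. Nuclease use also differed between these days. Box C/D PPSs with dsRNase calls alone, 5 at day 0 and 40 at day 4 when counted once for each gene they overlap, ended a median of 1.5 nt inside the 5′ end at day 4, and those with calls of both nucleases ran 20.5 nt past it at day 0 and 7 nt at day 4. Box H/ACA PPSs with dsRNase calls alone numbered 9 at day 0 and 61 at day 4 in the same way, and the median ends of all box H/ACA PPSs differed less between days than those of box C/D. Among box C/D PPSs that touched no exon of another gene the overhang at the 5′ end was 11, 1 and 1 nt. Genes are not replicates of a day, and neither the difference between days nor the part of the nucleases in it was tested.

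**Figure D3:**
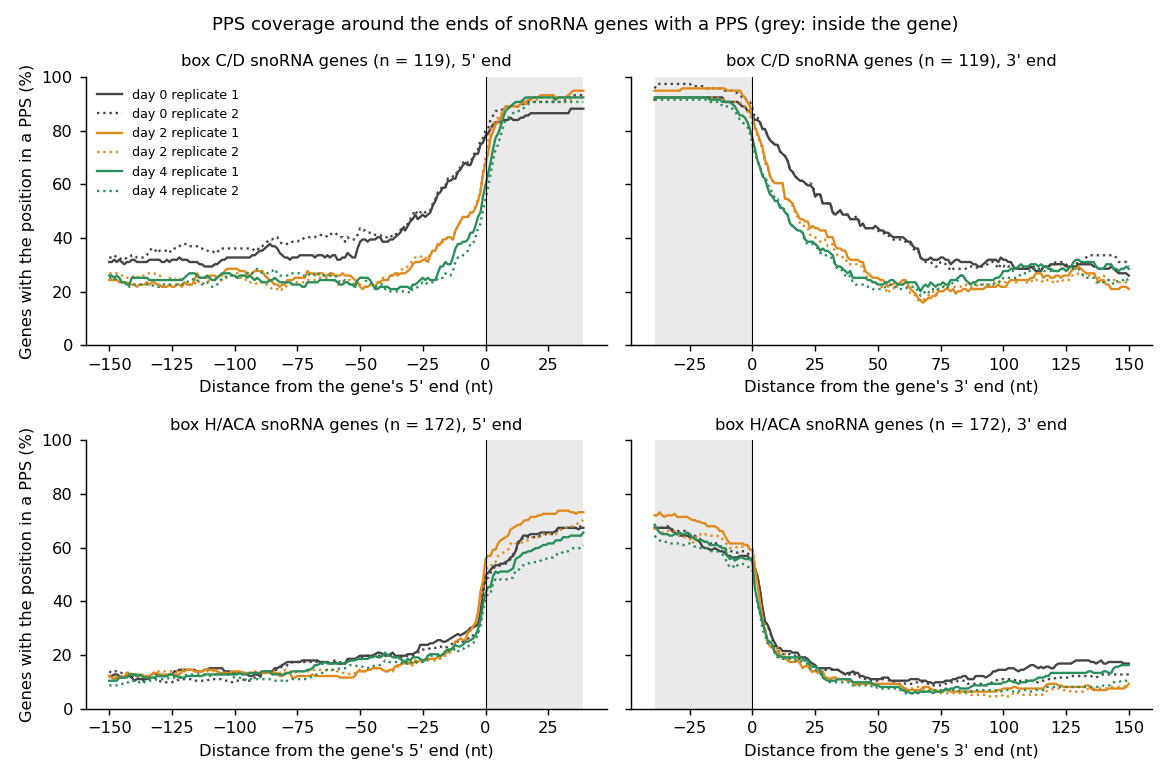
Percentage of snoRNA genes with a PPS whose position lies in a PPS of each replicate, against the distance (nt) from the 5′ end (left) and the 3′ end (right) of the gene, for 119 box C/D genes (top) and 172 box H/ACA genes (bottom). Negative distances lie before the end, and grey marks the gene. The day 0 lines lie above those of day 2 and day 4 outside box C/D genes, by 53.8% against 24.4% at 20 nt before the gene in replicate 1, and lie close to them around box H/ACA genes.

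Box C and box D mostly lay within the protected stretches, as did most of the gene, and the ACA box did so less often. The word TGATGA of box C was found in the first 25 nt of 71 of the 119 box C/D genes with a PPS and of 1 of the 172 box H/ACA genes with a PPS. The word CTGA of box D was found in the last 25 nt of 116 and of 36 genes, and ACA in the last 8 nt of 12 and of 154. Only the gene's strand was searched for these counts, and the reverse complements of TGATGA and CTGA stood in the same windows in 0.84% and 5.88% of box C/D genes. Box C/D genes without a PPS held TGATGA in 223 of 251. On genes with a PPS that day, box C lay wholly inside a PPS in 66 of 69 genes at day 0, 66 of 71 at day 2 and 66 of 70 at day 4. Box D lay inside in 113 of 116, 115 of 116 and 109 of 114, and the ACA box of H/ACA genes in 97 of 131, 110 of 147 and 97 of 131. On these days PPSs covered a median of 100%, 100% and 99.4% of box C/D genes with a PPS. For box H/ACA genes the medians were 98.6%, 97.1% and 91.9%. The boxes were not compared with other positions of the gene, so the counts do not single them out.

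Among the 43 snoRNA genes called in all 12 call sets, those first in coverage and then in alphabetical order, apart from predicted symbols, were Snora16a (annotated as 2 nearly identical gene models in Snhg12), Snora30, Snord49a, Snord50a and Snord50b in Snhg5, Snord100, and Mir5117, a model in Gas5 that is typed as a snoRNA. Each lay wholly inside PPSs on all 3 days. Snord49a had PPSs of 329 nt at day 0, 166 nt at day 2 and 106 nt at day 4. Snord50a had 164, 227 and 155 nt, and Snord50b 135, 150 and 319 nt, so the order of the days differed between genes. Snora30 varied little, with 137, 143 and 158 nt. Among the scaRNAs, Scarna17 was called in all 12 sets, with PPSs of 255, 406 and 405 nt on a gene of 79 nt. Scarna13, of 275 nt, was covered by 1 PPS of 285 nt at day 0 and 1 of 282 nt at day 2. At day 4 it was covered by 2 PPSs of 129 and 117 nt with a gap between them, which left 87.3% of the gene inside. Scarna6, of 265 nt, was 89.8%, 100% and 76.2% inside PPSs, and the dsRNase call of day 2 replicate 2 was missing.

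**Figure D4:**
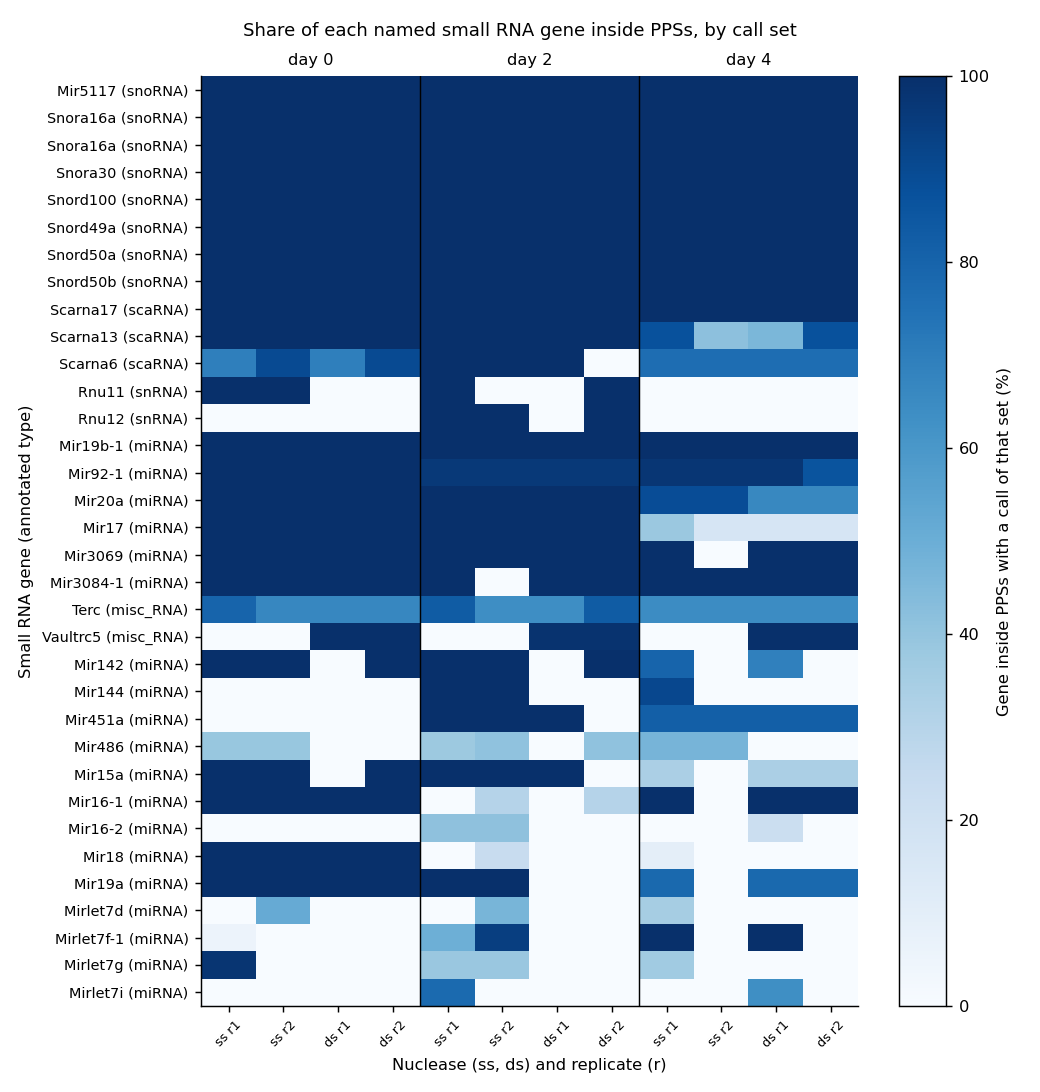
Percentage of each named small RNA gene inside PPSs that hold a call of the given day, nuclease (ss or ds) and replicate (r1, r2), from 0 (white) to 100 (dark blue). The 8 snoRNA rows at the top are at 100 in all 12 call sets, Vaultrc5 is at 0 in the ssRNase sets, and Mir144 and Mir451a are at 0 at day 0.

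Apart from predicted symbols, the miRNA genes called in all 12 call sets were Mir19b-1, Mir92-1, Mir20a and Mir17. They belong to the Mir17-92 cluster, a growth-promoting polycistron in the noncoding host Mir17hg. Mature sequences from RefSeq are printed with bases 2 to 8, the seed, in capitals. The miR-17-5p and miR-20a-5p lines share a seed, and so do the miR-19 lines.
miR-17-5p: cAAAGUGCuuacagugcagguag
miR-20a-5p: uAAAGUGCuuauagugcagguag
miR-19a-3p: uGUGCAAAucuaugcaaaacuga
miR-19b-3p: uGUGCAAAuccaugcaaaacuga
miR-18a-5p: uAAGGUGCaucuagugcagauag
miR-92a-3p: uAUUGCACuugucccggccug
At day 0 a single PPS of 1404 nt, merged from 28 calls of all 4 call sets, began 123 nt before the Mir17 hairpin and covered all 6 hairpins. At day 2 PPSs of 212, 60, 95, 326 and 225 nt followed each other over the hairpins. Mir17, Mir19a, Mir20a and Mir19b-1 were covered fully then, and Mir18 by 23.96%. At day 4 Mir19b-1 was still covered fully, Mir92-1 by 97.5%, Mir20a by 88.8%, Mir19a by 78.0%, Mir17 by 38.1% and Mir18 by 9.38%. The miR-17-5p stretch lay wholly inside PPSs at days 0 and 2 and to 4.35% at day 4, whereas both miR-19 stretches were inside on all 3 days. A PPS also lay on each gene of the Mir15 and Mir16 pairs. Mir16-1 in Dleu2 was covered by 100%, 60.2% and 100%, and Mir15a by 100%, 100% and 33.3%. The second pair, in Smc4, held no PPS at day 0, and at day 2 Mir16-2 was covered by 41.1% and Mir15b by 20.3%. At day 4 Mir16-2 was covered by 22.1%, with 90.9% of its miR-16-5p stretch inside, and Mir15b held no PPS.

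**Figure D5:**
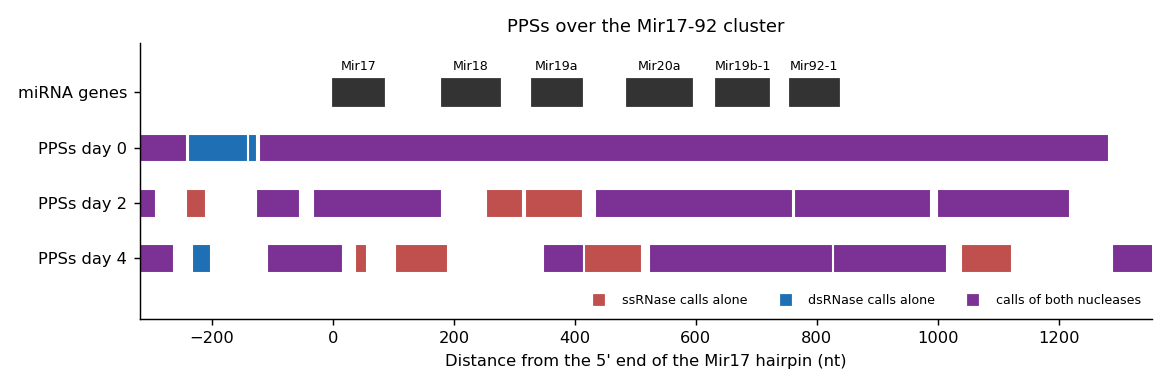
Map of the Mir17-92 cluster, with the distance (nt) from the 5′ end of the Mir17 hairpin on the x axis, the 6 miRNA genes on top and the PPSs of day 0, 2 and 4 below, coloured by the nucleases of their calls. A single PPS of 1404 nt spans the cluster at day 0, and at day 4 PPSs of 303 nt and less cover it in pieces.

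Of the erythroid and other blood miRNAs listed, 5 of 18 held a PPS. Mir144 and Mir451a, which are transcribed together and are typical of red cell precursors, held PPSs at days 2 and 4 and none at day 0.
miR-144-3p: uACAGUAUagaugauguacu
miR-451a: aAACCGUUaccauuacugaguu
Mir451a, at chr11:78073170-78073241, had no call at day 0. At day 2 it had both ssRNase calls and 1 of the 2 dsRNase calls, and at day 4 all 4 calls. The PPSs of 193 and 134 nt had scores, taken here as the enrichment score of the authors' caller, of 103.93 and 53.34. Mir144 had no call at day 0, both ssRNase calls at day 2 and 1 at day 4. In all, 35 of the 559 genes held a PPS at days 2 and 4 and not at day 0, of which 21 were miRNA genes, and 28 held one at days 0 and 2 and not at day 4. A PPS at day 2 alone was held by 72 genes, at day 4 alone by 26, at day 0 alone by 23, and at days 0 and 4 by 11. Such shares were not computed for genes outside the 5 types. RNA levels were not analysed here, so a gene without a PPS may lack RNA or protection. Mir142 was covered by 100%, 100% and 79.7% and Mir486 in Ank1, an erythroid membrane gene, by 39.1%, 78.1% and 46.9%. Mir191 held a PPS at day 2, in 1 call set. No PPS lay on Mir126a, Mir142b, Mir146, Mir150, Mir155, Mir210, Mir221, Mir222, Mir223, Mir23a, Mir24-2, Mir27a or Mir451b.

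The let-7 miRNAs share 1 seed, and 4 of their 11 genes held a PPS. Mirlet7f-1 was covered by 5.62%, 94.4% and 100% at day 0, 2 and 4, in 1, 2 and 2 call sets. Mirlet7g was covered by 97.7%, 38.6% and 36.4%, Mirlet7d by 51.5%, 46.6% and 34.95%, and Mirlet7i by 0%, 77.6% and 63.5%. The order of the days thus differed within the family, and most of these values rest on 1 or 2 call sets. Over all miRNA genes, 106 of the 155 with a PPS could be matched to mature sequences in RefSeq, and 55, 60 and 53 of their 181 mature stretches lay wholly inside a PPS at day 0, 2 and 4. Some miRNA models lie inside snoRNA or scaRNA genes. A PPS lay on 20 of 24 such models, among them Mir3069 within Scarna13, with 11 of 12 call sets. Mir3084-1, in an intron of Cbwd1, was also called in 11 sets. The snoRNA Gm23658 is annotated in the same host and also held PPSs. The PPSs on Mir3084-1, a model of 69 nt, were 137, 136 and 145 nt long and began 64 nt before it on each day. They are thus not assigned to the miRNA alone. Of the 135 other miRNA genes with a PPS, 80 lay in an exon of another gene, 37 in an intron of a host and 18 in neither.

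RNAs of the misc_RNA type with a PPS were few. Terc, the telomerase RNA of 423 nt at chr3:96414437-96414859, was called in all 12 sets and was covered by 79.9%, 83.0% and 64.5% at day 0, 2 and 4. Vaultrc5, the RNA of the vault particle, held both dsRNase calls and no ssRNase call on each of the 3 days, and its PPSs covered 100%, 98.6% and 100% of its 143 nt. No PPS lay on Rn7sk, the RNA that holds the elongation factor P-TEFb, on Rn7s1, Rn7s2 or Rn7s6, which belong to the signal recognition particle, or on the Y RNAs Rny1 and Rny3. The other misc_RNA models with a PPS carry predicted-gene symbols and lay mostly in long noncoding hosts, namely Neat1, Malat1, Tug1 and Pvt1. Gm27533 in Neat1 was the most often called of these, with 10 of 12 sets, and its coverage was 80.3%, 42.8% and 100%.

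Several of the highest-scoring sites were merged sites that reached beyond 1 small RNA. The highest snoRNA PPS, with a score of 222.68, was a day 0 site of 570 nt in Gas5 that held Snord47 and was merged from 17 calls. The highest miRNA PPS was the day 0 site over the Mir17-92 cluster (316.92), and the highest scaRNA PPS was that of Scarna17 at day 2 (196.01). The highest misc_RNA PPS lay on Gm27533 at day 4 (96.14). The highest snRNA PPS lay on Gm23502, a U12 copy, at day 2 and had a score of 32.16. Scores seem to add up when calls are merged, so sites with different numbers of calls are not compared by score here.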

How the data were processed

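MEL cells were profiled by PIP-seq at day 0, 2 and 4 of DMSO in 2 replicates and 4 library types, 24 libraries in all. Per the study's methods, the authors trimmed reads with cutadapt 1.2.1, aligned them to mm10 with TopHat2 2.0.10, collapsed PCR duplicates, called PPSs with a modified CSAR (Poisson test, FDR 5%) and merged the calls of a day. The deposited BED lists hold a score per PPS, taken here as the caller's enrichment score, and the other column used holds the names of merged calls. The lists give no read counts, and how libraries were scaled is not given in the sources used here. Call sets held 20569 to 89671 PPSs.

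Names were matched to sample titles. Gene types came from GENCODE M21, snoRNA classes and snRNA families from RefSeq GRCm38.p6 (at least 50% reciprocal overlap), and miRNA sequences from RefSeq. No PPS passed a chromosome end of that build on 21 chromosomes. A value per replicate used PPSs with at least 1 call of it. Replicate sets share merged coordinates, so their spread is understated. Tests were exact sign-flip permutations over 6 replicates, two-sided, with Benjamini-Hochberg adjustment at 0.05, checked on simulated data (Python 3.11.15, numpy 2.4.6, pandas 2.3.3, pysam 0.24.0). Members and lists were chosen with earlier results of these data known. Genes were named by type, without predicted or RIKEN symbols, by number of call sets, mean coverage and symbol, together with members of the fixed lists that held a PPS on 2 or more days. Alternatives were a score limit of 10, an overlap of 50%, leaving out exonic, short, single-replicate or single-nuclease sites or predicted genes, flanks of 50 and 1000 nt, equal list sizes, and leaving out each replicate. Some results are not reported here.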

Additional observations from a re-analysis of the deposited data

Results flagged for a closer look

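PPSs with ssRNase calls and PPSs with dsRNase calls went opposite ways from day 0 to day 4 without overlap of the replicates for all members, for snoRNA genes (and in both of their classes) and for snRNA genes, and the difference was not tested. The whole list did the same. For all members, the mean count per replicate differed from day 0 by -124.5 for ssRNase and by 93.0 for dsRNase, which are 217.5 apart. For snoRNA genes the differences were -109.0 and 73.0, which are 182.0 apart. For snRNA genes they were -3.5 and 1.5, which are 5.0 apart and rest on 2 to 6 PPSs per call set. Over all PPSs the mean counts at day 4 were 0.893 and 1.58 times those at day 0.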

How the results depend on the processing

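Members were 0.302%, 0.309% and 0.289% of the PPSs at day 0, 2 and 4 and 426, 499 and 436 genes held one. These shares were 0.683%, 0.657% and 0.590% at a score of 10 or more, 0.233%, 0.257% and 0.232% with at least 50% of the PPS inside the gene, 0.334%, 0.360% and 0.320% without PPSs of 20 to 40 nt, 0.861%, 0.842% and 0.689% with calls of both replicates, 0.398%, 0.356% and 0.347% with ssRNase calls and 0.454%, 0.619% and 0.385% with dsRNase calls. They were 0.392%, 0.382% and 0.372% on 228, 295 and 251 genes without PPSs on exons of other genes, and 0.123%, 0.118% and 0.119% on 178, 194 and 179 genes without predicted genes. With equal numbers of top-scoring PPSs the shares were 0.346% at day 2 and 0.3165% at day 4. Leaving out a replicate gave 0.4179% to 0.4185% at day 0, 0.4061% to 0.4125% at day 2 and 0.369% to 0.3933% at day 4. It gave 381 to 388, 429 to 430 and 372 to 397 genes.

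With at least 50% of the PPS inside the gene, the member differences were 47.9 nt in length, -9.12 percentage points in sites of 20 to 40 nt, 28.3 in dsRNase calls and 39.5 in replicate support. They no longer passed after adjustment (adjusted exact permutation p = 0.0536). The unadjusted exact permutation p of the dsRNase difference stayed 0.0312, and the adjusted value depends on how many tests of the family reach that smallest p. Without exonic PPSs the difference in sites of 20 to 40 nt was -3.95 and did not pass. Leaving out a replicate gave 53.1 to 58.3 nt, -10.5 to -8.49, 23.8 to 29.1 and 39.6 to 41.1, where 5 replicates cannot go below an exact permutation p of 0.0625. The gene-minus-flank differences passed without exonic PPSs (snoRNA 7.38, scaRNA 31.3, miRNA 0.50 and, with its sign turned, misc_RNA 0.21 percentage points), with calls of both replicates (snoRNA 10.5, scaRNA 30.1, snRNA 0.21 and miRNA 0.48) and with dsRNase calls (snoRNA 9.63, scaRNA 27.0, snRNA 0.10 and miRNA 0.49). Adjusted values depend on how many gene types reach the smallest p, so passing does not mean a larger difference. The misc_RNA difference of -0.15 turned to 0.087, 0.21, 0.0024, 0.0099 and 10.9 with at least 50% inside, without exonic PPSs, with calls of both replicates, with dsRNase calls and without predicted genes. Leaving out a replicate gave 10.4 to 10.9 (snoRNA), 33.3 to 35.4 (scaRNA), 0.366 to 0.466 (miRNA), 0.129 to 0.233 (snRNA) and -0.22 to -0.114 (misc_RNA). The cause of these changes was not tested. Without predicted genes the differences were 35.5 for snoRNA (10.7 with them), 69.4 for scaRNA (34.5) and 8.13 for snRNA (0.19), in the same direction. The other alternatives kept direction and call, but not always the size. At a score of 10 or more the member differences were -1.62 percentage points in sites of 20 to 40 nt and 10.6 in replicate support. No paired analysis was possible because the labels link no replicate of one day to a replicate of another and the lists are merged by day. The lists give no reads per gene, so a gene without a PPS may have had too few.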
